A study of Mus musculus with 27 samples.

Results

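Fibroblast identity and activation were followed through 8 genes in the messenger RNA of the mouse left ventricle: Tcf21, Pdgfra, Ddr2, Thy1, Vim, S100a4, Aldh1a2 and Penk. They were chosen by name, and by 1 measured value, since the authors' table holds only genes that reach 3 RPKM in at least 1 library. RPKM counts reads per kilobase of transcript and scales them to the mapped reads of the library. All 8 are among the 8987 genes analysed. Aldh1a2, which peaked at 5.4 RPKM, was the member nearest that minimum, and no gene below it was analysed here.

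Adult FVB mice of 2 genotypes gave the hearts, wild type (WT) and caPI3Kalpha, the latter with a mutant phosphoinositide 3-kinase alpha that signals without a stimulus. The promoter that drives the transgene is not given in the sources used here. The operation was either transverse aortic constriction (TAC), in which a band on the aorta raises the pressure against which the ventricle pumps, or sham, and tissue was collected 7 days afterwards. Of 11 hearts with messenger RNA data, 4 were WT after sham, 3 WT after TAC, 2 caPI3Kalpha after sham and 2 caPI3Kalpha after TAC, and each library came from 1 mouse.

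Cardiac fibroblasts lie between the muscle cells and build the collagen matrix. Under pressure load they divide, take on contractile and secretory features and add matrix. Many descend from the epicardium, the outer cell layer of the heart, and no single gene marks all of them and no other cell. Tcf21 and Pdgfra are used as markers of resident fibroblasts, while Vim and S100a4 are shared with endothelial and immune cells.

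The targeted gene followed the labels: Pik3ca read between 5.3 and 8.9 RPKM in the 7 WT libraries and between 101.3 and 195.0 RPKM in the 4 caPI3Kalpha libraries. The 12 cardiomyocyte markers were all listed and none was at 0 in any library. The libraries also split into 2 sets, which no label names, along a first principal component with 52.0% of the variance of all genes. All 4 caPI3Kalpha libraries are in the first set together with WT sham 6 and WT TAC 1, and the other 5 WT libraries form the second. Set and genotype are therefore partly mixed, and values within each set are given below. Depth is unknown, since the values are RPKM printed to 1 decimal.

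Levels per transcript length differed widely among the 8 genes. In WT sham Vim stood highest at a mean of 72.8 ± 7.80 RPKM (SD, n = 4), above 95.7% of listed genes. Penk came next at 9.28 ± 1.72 RPKM, and Pdgfra (6.35 ± 1.18) and Ddr2 (6.33 ± 1.32) were level with each other within their spread. S100a4 (3.13 ± 0.634), Thy1 (3.03 ± 0.754) and Tcf21 (2.40 ± 1.41) overlapped, and Aldh1a2 was lowest at 0.825 ± 0.310 RPKM. After TAC in WT the order changed. S100a4 stood second at 15.4 ± 2.58 RPKM (SD, n = 3), and Penk, second in sham, was last at 2.80 ± 1.31 RPKM.

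**Figure D1:**
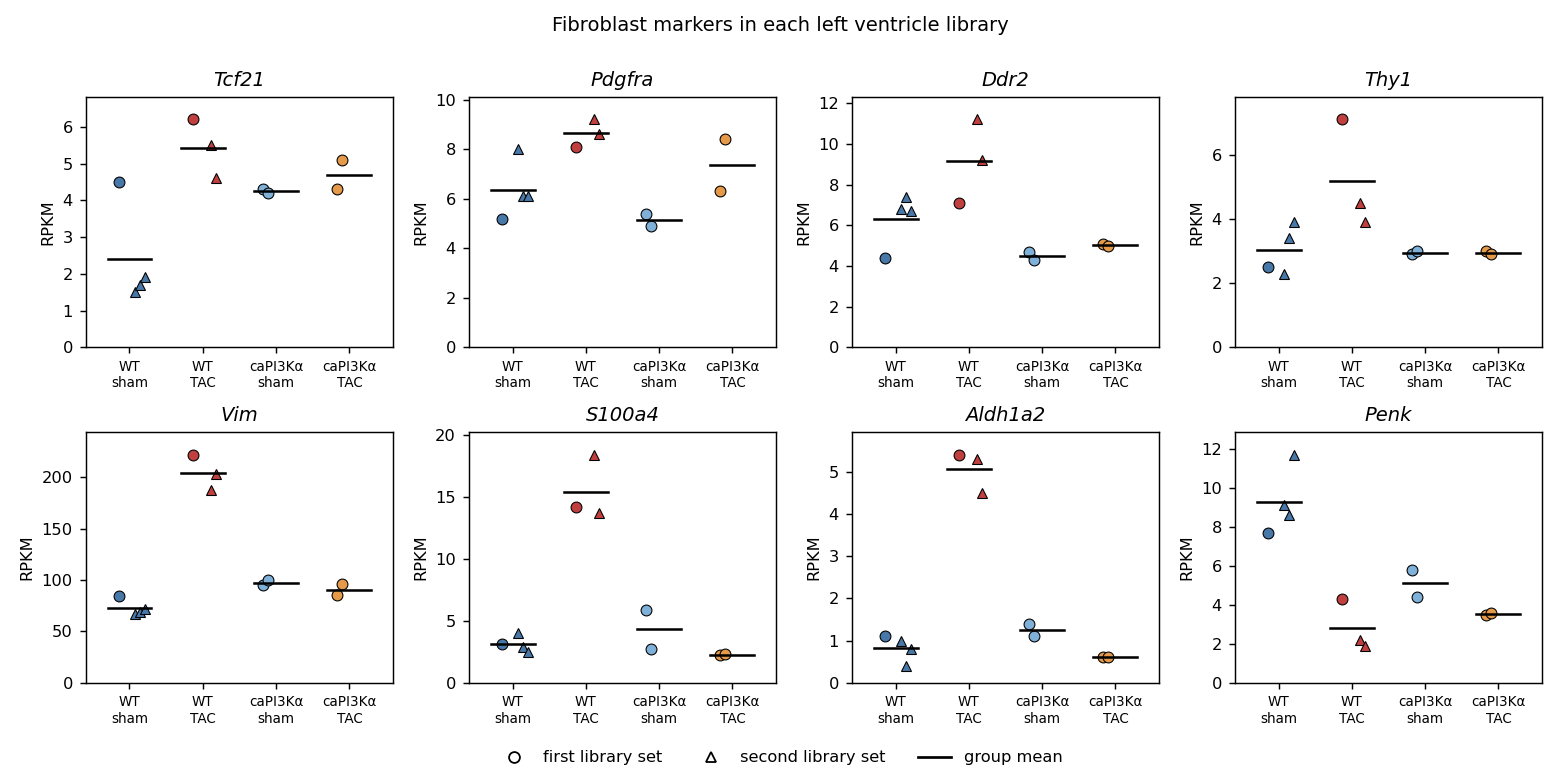
RPKM of the 8 genes (vertical axes, linear from 0) in each of 11 libraries by group (horizontal axes). Circles are libraries of the first set, triangles of the second, and bars are group means. Vim, S100a4 and Aldh1a2 were high in the 3 WT TAC libraries, and Penk was highest in the 4 WT sham libraries.

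Tcf21 encodes a basic helix-loop-helix transcription factor needed for the formation of cardiac fibroblasts. It read 4.5, 1.5, 1.7 and 1.9 RPKM in WT sham 6, 7, 13 and 15 and 6.2, 5.5 and 4.6 RPKM in WT TAC 1, 17 and 19. In caPI3Kalpha hearts it read 4.3 and 4.2 RPKM after sham and 4.3 and 5.1 RPKM after TAC. WT TAC did not overlap WT sham, and WT sham 6 lay with the caPI3Kalpha libraries, which are in the same set. The WT rise was 1.13 on the log2(RPKM + 0.5) scale used for all fitted differences (standard error, SE, 0.27, limma adjusted p = 0.0180). It was 0.42 within the first set (adjusted p = 0.219) and 1.33 within the second (adjusted p = 0.00142). The limma call was lost with quantile normalization (adjusted p = 0.0626), without WT sham 7 (0.99, adjusted p = 0.0519) and without WT TAC 17 (1.1, adjusted p = 0.0667).

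A long noncoding RNA gene, Gm10824, overlaps Tcf21 in RefSeq GRCm38.p6, and 3110045C21Rik overlaps Ddr2. The use of strand in counting is not given in the sources used here, so reads of the overlapping genes cannot be told apart.

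Pdgfra encodes the alpha receptor for platelet-derived growth factor. Its values were 5.2, 8.0, 6.1 and 6.1 RPKM in WT sham 6, 7, 13 and 15 and 8.1, 9.2 and 8.6 RPKM in WT TAC 1, 17 and 19. They were 5.4 and 4.9 RPKM in the caPI3Kalpha hearts 5 and 8 after sham, and 6.3 and 8.4 RPKM in hearts 11 and 211 after TAC. TAC libraries lay above sham libraries in both genotypes, with the lowest WT TAC value 0.1 RPKM above the highest WT sham value. The differences, 0.43 in WT (95% interval 0.10 to 0.76, adjusted p = 0.0746) and 0.46 in caPI3Kalpha (0.03 to 0.89, adjusted p = 0.870), did not pass in limma. The WT difference passed without WT sham 7 (0.54, adjusted p = 0.0375) and with a term for the library set (0.45, adjusted p = 0.0126). Centred on library medians it was 0.24 (adjusted p = 0.364).

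Ddr2 encodes a receptor tyrosine kinase that binds fibrillar collagen. It read 4.4, 6.8, 7.4 and 6.7 RPKM in WT sham, 7.1, 11.2 and 9.2 RPKM in WT TAC, 4.7 and 4.3 RPKM in caPI3Kalpha sham and 5.1 and 5.0 RPKM in caPI3Kalpha TAC, in the same order of animals. The first-set libraries WT sham 6 and WT TAC 1 were each the lowest of their group, and the WT groups overlapped through WT TAC 1. The WT difference was 0.50 (95% interval 0.10 to 0.91, limma adjusted p = 0.0872). It passed without WT TAC 1 (0.67, adjusted p = 0.0294), within the second set alone (0.51, adjusted p = 0.0170) and with the set term (0.55, adjusted p = 0.000796). The first of these fits has only second-set WT TAC libraries but keeps WT sham 6, so load and set are partly mixed in it. Centred on library medians the WT difference was 0.31 (adjusted p = 0.318).

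Thy1 encodes a surface glycoprotein of fibroblasts that T cells and neurons also carry. Its levels were 2.5, 2.3, 3.4 and 3.9 RPKM in WT sham and 7.1, 4.5 and 3.9 RPKM in WT TAC, and the groups touched at 3.9 RPKM. All 4 caPI3Kalpha libraries read 2.9 or 3.0 RPKM. The WT difference of 0.67 (95% interval 0.21 to 1.13) had a limma adjusted p of 0.0519. It was 1.34 in the first set, through WT TAC 1, and 0.37 in the second. It passed without WT sham 15 (0.78, adjusted p = 0.0429), without WT TAC 19 (0.83, adjusted p = 0.0416) and with the set term (0.65, adjusted p = 0.0195). Centred on library medians it was 0.48 (adjusted p = 0.167). Of 9 other T cell markers 1, Cd247, was among the genes analysed, at 1.9 to 3.4 RPKM in WT sham and 2.6 to 3.8 RPKM in WT TAC.

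Vim encodes vimentin, the intermediate filament protein of mesenchymal cells. It read 84.1, 66.8, 68.6 and 71.7 RPKM in WT sham 6, 7, 13 and 15 and 221.9, 187.3 and 203.1 RPKM in WT TAC 1, 17 and 19. In caPI3Kalpha it read 94.9 and 100 RPKM after sham and 85.5 and 96.0 RPKM after TAC. Every WT TAC library exceeded every other library, and the caPI3Kalpha libraries of both operations lay above all WT sham libraries. In WT it rose 2.80-fold (log2 1.48, SE 0.11, limma adjusted p = 2.83e-05), and the rise was 1.39 within the first set and 1.49 within the second.

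S100a4 encodes a small calcium-binding protein, known as fibroblast-specific protein, that macrophages and other leukocytes also make. It stood at 3.1, 4.0, 2.9 and 2.5 RPKM in WT sham and 14.2, 18.4 and 13.7 RPKM in WT TAC, in the same order of animals. The caPI3Kalpha values were 5.9 and 2.7 RPKM in sham 5 and 8 and 2.2 and 2.3 RPKM in TAC 11 and 211. The loaded caPI3Kalpha hearts thus had the lowest 2 values of all 11 libraries. In WT it rose 4.41-fold (log2 2.14, SE 0.22, limma adjusted p = 0.000246), by 2.03 within the first set, where it did not pass (adjusted p = 0.109), and by 2.19 within the second.

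Aldh1a2 encodes an enzyme that makes retinoic acid, a signal used by the epicardium and by fibroblast precursors. It read 1.1, 1.0, 0.4 and 0.8 RPKM in WT sham, 5.4, 5.3 and 4.5 RPKM in WT TAC, 1.4 and 1.1 RPKM in caPI3Kalpha sham and 0.6 RPKM in both caPI3Kalpha TAC libraries. Only the 3 WT TAC libraries reached the 3 RPKM needed for the table, so a difference between WT TAC and the other groups was a condition of its being listed. Its fitted WT difference of 2.10 (SE 0.22), a 4.29-fold difference, is therefore a description, as are its interaction and its difference between loaded hearts below. Its calls support nothing, and counts of called members leave it out or say that they include it.

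None of 13 epicardial markers, Wt1, Tbx18 and Upk3b among them, is among the genes analysed here. Of 19 other genes of retinoic acid synthesis, transport and response 10 were listed. Their median in WT TAC was 0.16, near the 0.17 of all genes, 8 did not pass in limma, and the receptor gene Rxrg fell (-0.52, SE 0.11, adjusted p = 0.0104).

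Windows upstream of Vim, S100a4 and Aldh1a2 are shown because these 3 genes were high in the same libraries. RefSeq (GRCm38.p6) gave a window of 250 bases before to 50 bases after the start for 6 members. The following sequences run 5′ to 3′ on the strand of the gene, and capitals mark matches to TATAAA or CCAAT on either strand.
Vim, chr2:13574061-13574360, plus strand: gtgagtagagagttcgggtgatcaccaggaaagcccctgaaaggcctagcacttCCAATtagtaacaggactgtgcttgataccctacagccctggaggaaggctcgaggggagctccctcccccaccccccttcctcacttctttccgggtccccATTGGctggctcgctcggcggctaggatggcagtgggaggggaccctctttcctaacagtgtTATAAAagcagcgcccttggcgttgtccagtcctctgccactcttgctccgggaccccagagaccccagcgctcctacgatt
S100a4, chr3:90603520-90603819, plus strand: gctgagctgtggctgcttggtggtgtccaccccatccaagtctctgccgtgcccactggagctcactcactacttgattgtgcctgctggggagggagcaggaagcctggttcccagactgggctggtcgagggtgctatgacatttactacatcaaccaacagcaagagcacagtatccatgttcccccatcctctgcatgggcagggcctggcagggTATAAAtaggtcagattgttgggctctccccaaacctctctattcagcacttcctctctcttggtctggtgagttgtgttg
Aldh1a2, chr9:71215539-71215838, plus strand: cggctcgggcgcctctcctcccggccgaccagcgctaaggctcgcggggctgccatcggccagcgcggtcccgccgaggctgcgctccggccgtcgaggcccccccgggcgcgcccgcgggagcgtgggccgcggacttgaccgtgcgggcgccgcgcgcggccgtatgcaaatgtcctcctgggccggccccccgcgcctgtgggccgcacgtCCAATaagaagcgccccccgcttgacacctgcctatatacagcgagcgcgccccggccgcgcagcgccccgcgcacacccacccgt
The letters TATAAA begin 32 bases before the start of Vim and 31 bases before that of S100a4, and are in 13.6% of 32841 RefSeq windows of this length. Aldh1a2 has no such match, and its CCAAT begins 36 bases before the start; CCAAT is in 37.4% of windows. Of the other motifs searched on both strands, the 6 windows held no GC box (GGGCGG, in 35.7% of windows), AP-1 site (TGACTCA, 5.2%), E box (CAGCTG, 16.3%), TEAD site (CATTCC, 14.7%) or CRE (TGACGTCA, 1.8%). No matches of different motifs overlapped in these windows. The Aldh1a2 window holds 50 CG dinucleotides, more than 99.1% of windows, against 11 in Vim and 2 in S100a4, where the median window has 7. The 3 genes thus differ in the make-up of these windows.

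Penk encodes proenkephalin, the precursor of the enkephalin opioid peptides, and is made by a part of the fibroblasts of several tissues. It went the other way. It read 7.7, 9.1, 8.6 and 11.7 RPKM in WT sham 6, 7, 13 and 15 and 4.3, 2.2 and 1.9 RPKM in WT TAC 1, 17 and 19. In caPI3Kalpha it read 5.8 and 4.4 RPKM after sham and 3.5 and 3.6 RPKM after TAC. Every library outside WT sham was below every WT sham library. The WT fall was 3.07-fold (log2 -1.62, SE 0.23, limma adjusted p = 0.00124). It was -0.77 within the first set, where it did not pass (adjusted p = 0.135), and -2.0 within the second. Of 10 other opioid precursor, processing and receptor genes 3 were listed, and 1, Pam, an enzyme that amidates peptides, rose in WT TAC (0.58, SE 0.13, limma adjusted p = 0.0138).

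For WT TAC against WT sham the members read as follows against the table. Of the 7 members other than Aldh1a2, 3 rose (Tcf21, Vim, S100a4), 1 fell (Penk) and 3 did not pass, where 13.6% of all 8987 genes were called higher and 2.85% lower by limma. Groups did not overlap for 5 members that were higher, Aldh1a2 among them, and 1 that was lower, against 18.9% and 4.65% of all genes. The members were listed with earlier results of these data known, so these shares are descriptions. The median of all genes was 0.17 in this comparison. Centred on library medians it was -0.02, the split of all calls moved from 1225 higher and 256 lower to 561 and 610, and all 8 members kept their direction.

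The same comparison in caPI3Kalpha, 2 TAC against 2 sham hearts, gave no call among the 8 members or among all 8987 genes in limma (0% of the table). With a term for the library set 93 genes passed, none of them a member. At an unadjusted p under 0.05 there were 3 members, Pdgfra, S100a4 and Aldh1a2, and 454 genes (5.05%). Vim differed by -0.10 (95% interval -0.42 to 0.22), and the interval excludes its WT rise of 1.48. S100a4 stood at -0.72 (-1.37 to -0.07), and this was -0.22 without caPI3Kalpha sham 5 and -1.22 without caPI3Kalpha sham 8. Aldh1a2 stood at -0.66 (-1.31 to -0.02) and Penk at -0.46 (-1.11 to 0.20). Tcf21 at 0.13 (-0.66 to 0.91), Ddr2 at 0.15 (-0.38 to 0.68) and Thy1 at 0.00 (-0.61 to 0.61) had wide intervals, which do not show that load left them alone. Groups did not overlap for 2 higher and 3 lower members, Aldh1a2 among the lower, where 22.4% and 20.0% of all genes were so placed.

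The interaction of genotype and operation, the load response of caPI3Kalpha minus that of WT, tests that difference itself. Limma called 2 of the 7 members other than Aldh1a2 lower, Vim (-1.59, SE 0.18, adjusted p = 0.00670) and S100a4 (-2.86, SE 0.37, adjusted p = 0.0137), where 28 genes of the whole table (0.312%) were called, all of them lower. Aldh1a2 stood at -2.77 (SE 0.37), a value that rests on the WT TAC libraries through which it was listed. With a term for the library set Vim and S100a4 stood at -1.57 and -2.86. Within the first set, which holds 1 library of each WT group, they were -1.5 and -2.75 and did not pass (adjusted p = 0.196 and 0.297).

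These calls rested on few libraries. Without caPI3Kalpha TAC 11 neither passed (Vim -1.5, adjusted p = 0.0665). Vim passed and S100a4 did not without caPI3Kalpha TAC 211 (S100a4 -2.89, adjusted p = 0.0822) and without WT TAC 17 (S100a4 -2.73, adjusted p = 0.0553). The size of the S100a4 interaction moved with the caPI3Kalpha sham libraries, from -2.36 without sham 5 to -3.36 without sham 8, and passed in both. That of Vim ran from -1.67 to -1.5 with libraries left out. Library caPI3Kalpha TAC 11 also read highest for the 7 listed atrial and blood genes, at a summed 816.3 RPKM against 32.6 RPKM in caPI3Kalpha TAC 211; the part of this in the result was not tested.

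Of the other members Penk stood at 1.16 (95% interval 0.34 to 1.99) and Tcf21 at -1.0 (-1.99 to -0.02), neither past the threshold over all genes (limma adjusted p = 0.285 for Penk and 0.474 for Tcf21). Penk passed without WT TAC 1 (1.47, adjusted p = 0.0490) and Tcf21 without WT sham 6 (-1.30, adjusted p = 0.0312). Each of these fits leaves a WT group with second-set libraries only, so the WT load response is partly mixed with the set. Within the first set Penk stood at 0.32 and Tcf21 at -0.30. Over all libraries Thy1 (-0.67), Ddr2 (-0.35) and Pdgfra (0.03, interval -0.51 to 0.58) did not pass.

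**Figure D2:**
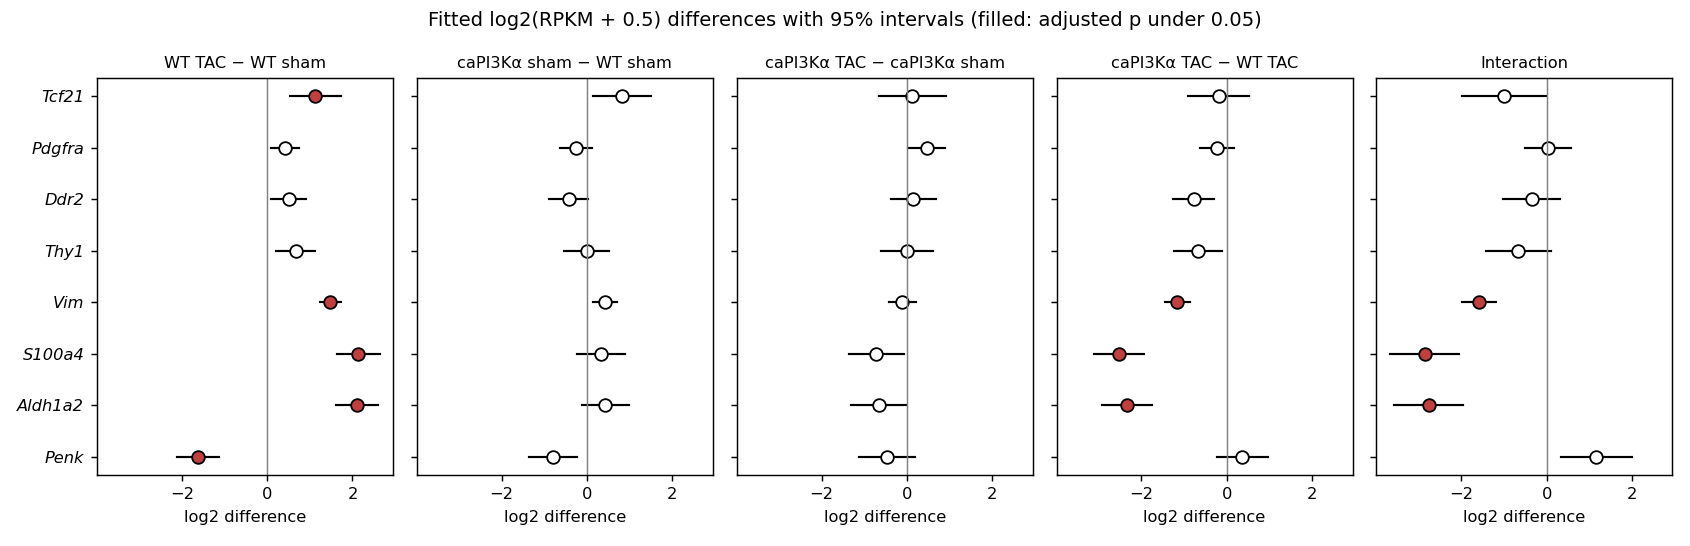
Fitted differences on the log2(RPKM + 0.5) scale (horizontal axes) for each gene (vertical axis) in 5 comparisons, with 95% intervals from limma; filled points passed an adjusted p of 0.05. Vim, S100a4 and Aldh1a2 are filled to the right of 0 for WT TAC and to the left of 0 for caPI3Kalpha TAC against WT TAC and for the interaction; Aldh1a2 was listed through its WT TAC values.

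**Figure D3:**
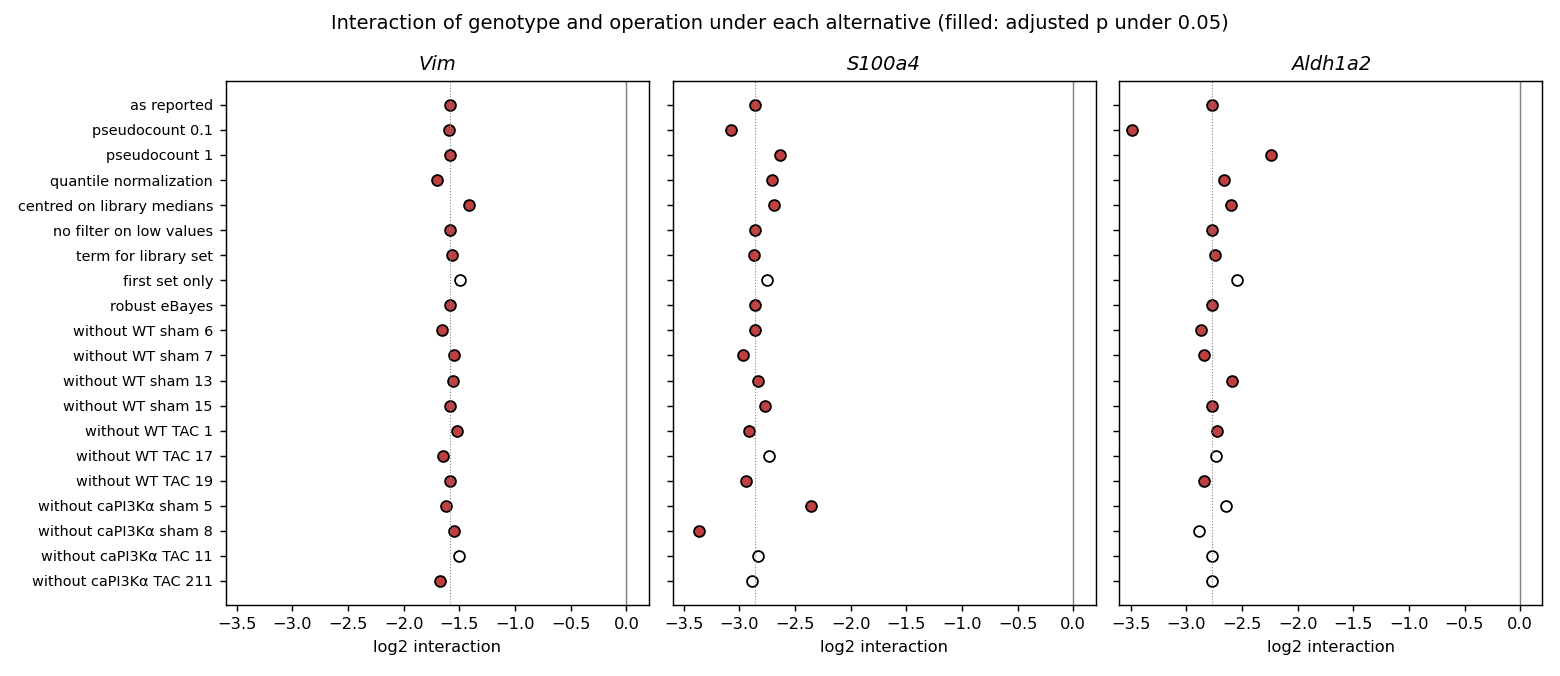
Interaction of genotype and operation (horizontal axes, log2) for Vim, S100a4 and Aldh1a2 under each alternative setting (vertical axis); filled points passed an adjusted p of 0.05. Values stay between -3.49 and -1.42 throughout, while the points without caPI3Kalpha TAC 11 and in the first set alone are open for all 3 genes. Aldh1a2, listed through WT TAC, is shown as a description.

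Loaded hearts of the 2 genotypes were compared directly, sharing their libraries with the comparisons above. Of the 7 members other than Aldh1a2, limma called 2 lower in caPI3Kalpha TAC than in WT TAC, where 5.78% of all genes were called lower and 0.746% higher. S100a4 was 5.75-fold lower (log2 -2.52, SE 0.27, adjusted p = 0.00138) and Vim 2.24-fold lower (log2 -1.16, SE 0.13, adjusted p = 0.00175). As a description, Aldh1a2 was 5.05-fold lower (log2 -2.34, SE 0.27). Within the first set, against WT TAC 1 alone, S100a4 and Vim stood at -2.42 and -1.29 and did not pass (adjusted p = 0.119 and 0.0644). Both passed when each of the 5 libraries was left out in turn. Ddr2 (-0.78, 95% interval -1.26 to -0.29, adjusted p = 0.0576) and Penk (0.36, -0.24 to 0.96) passed without WT TAC 1, at -0.94 (adjusted p = 0.0137) and 0.67 (adjusted p = 0.0278). Without WT TAC 1 the WT TAC libraries are all of the second set and the caPI3Kalpha TAC libraries all of the first. Genotype and set cannot be told apart there, and within the first set Ddr2 stood at -0.45 and Penk at -0.25. Thy1 (-0.68), Pdgfra (-0.23, -0.62 to 0.16) and Tcf21 (-0.19, -0.90 to 0.53) did not pass. In the 2 directions together 6.52% of all genes were called. Groups did not overlap for 5 members, Aldh1a2 among them, all lower in caPI3Kalpha TAC, where 36.2% of all genes were so placed. Centring on library medians moved the split of all calls from 67 higher and 519 lower to 130 and 139, and S100a4 and Vim were called there too.

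Without load, in 2 caPI3Kalpha sham against 4 WT sham hearts, no member passed in limma, where 1 gene of the table (0.0111%), Pik3ca, was called. At an unadjusted p under 0.05 there were 1193 genes (13.3% of the table) and 3 members: Vim (0.42, 95% interval 0.15 to 0.70), Penk (-0.80, -1.37 to -0.23) and Tcf21 (0.82, 0.14 to 1.5). WT sham 6 is in the same set as the caPI3Kalpha libraries. When it was left out, 4 members passed, Tcf21 (1.11), Ddr2 (-0.58), Vim (0.49) and Penk (-0.88), and so did 1824 genes of the table. The WT sham libraries are then all of the second set, so genotype and set cannot be told apart. Groups did not overlap for 1 higher member, Vim, and 1 lower, Penk, where 9.42% and 10.1% of all genes were so placed. Within the first set Tcf21 stood at -0.07 and Ddr2 at 0.03, against 0.82 and -0.43 over all libraries. Vim and Penk stood at 0.21 and -0.56 there, against 0.42 and -0.80.

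Because every library is scaled as a whole, ratios between members within a library do not depend on that scaling. S100a4 RPKM divided by Pdgfra RPKM was 0.596, 0.50, 0.475 and 0.410 in WT sham 6, 7, 13 and 15 and 1.75, 2.00 and 1.59 in WT TAC 1, 17 and 19. In the caPI3Kalpha hearts the same ratio was 1.09 (sham 5), 0.551 (sham 8), 0.349 (TAC 11) and 0.274 (TAC 211). Penk divided by Pdgfra went from between 1.14 and 1.92 in WT sham to between 0.221 and 0.531 in WT TAC, with 1.07 and 0.898 in caPI3Kalpha sham and 0.556 and 0.429 in caPI3Kalpha TAC. Relative to Pdgfra, S100a4 was thus higher and Penk lower in WT TAC than in WT sham. Vim divided by Pdgfra was between 8.35 and 16.2 in WT sham and between 20.4 and 27.4 in WT TAC, but caPI3Kalpha sham 8, at 20.4, reached the lowest WT TAC value. For Tcf21 and Ddr2 the WT groups overlapped. Tcf21 divided by Pdgfra was 0.865 in WT sham 6, above every WT TAC library (0.535 to 0.765), and 0.188 to 0.311 in the other WT sham libraries. Ddr2 divided by Pdgfra was between 0.846 and 1.21 in WT sham and between 0.877 and 1.22 in WT TAC. In bulk tissue, a change in the number of fibroblasts, a change in RNA per fibroblast and a change in other cell types cannot be told apart.

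Other fibroblast markers gave the setting for these values. Of 25 genes in that list, collagens, Dcn and Lum among them, 23 were listed, and in WT TAC 17 rose, 1 fell (Scara5, -0.59, named after its value was seen) and 5 did not pass by limma. Their median was 1.26, against 0.17 for all genes. Among those that rose were Mfap5, a microfibril protein (2.50, SE 0.13, adjusted p = 2.03e-06), and Fstl1, a secreted glycoprotein (2.19, SE 0.11, adjusted p = 1.66e-06). Of 17 listed genes of activated fibroblasts 15 rose and none fell, with a median of 1.64. Of these 15, 4 reach 3 RPKM in WT TAC libraries only and so had to be high there to be listed (Ltbp2, Lox, Tnc, Wisp2), which leaves 11. Postn, which encodes periostin, was at 3.92 (SE 0.15, limma adjusted p = 2.75e-07) and Cilp at 3.19 (SE 0.27, adjusted p = 6.87e-05).

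In caPI3Kalpha none of these genes passed in limma for TAC against sham, and 5 of 23 and 9 of 17 had an unadjusted p under 0.05. Postn stood at 1.01 (95% interval 0.58 to 1.44) and Mfap5 at 0.98 (0.61 to 1.34). The medians were 0.35 for the first list and 0.53 for the second, with all genes at 0.01. In the interaction 3 of 23 (Fstl1 -1.95, Mfap5 -1.52, Col3a1 -2.31) and 2 of 17 (Postn -2.91, Fn1 -2.45) were lower. Between loaded hearts 7 of 23 were lower and 1 higher in caPI3Kalpha, the latter Gsn (0.85), and 6 of 17 were lower. Among these 6, Ltbp2, Lox and Tnc reach 3 RPKM in WT TAC libraries only, so their part in the count is a description.

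Macrophage markers moved in the same libraries. Of 14 listed macrophage markers, 13 rose in WT TAC by limma (median 1.11), and 8 were lower in caPI3Kalpha TAC than in WT TAC. Among the 13, Emr1 and Ptprc reach 3 RPKM in WT TAC libraries only, which leaves 11. Both are also among the 8, and their part in that count is a description. For TAC against sham in caPI3Kalpha none of the 14 had an unadjusted p under 0.05 in limma (median -0.0006). In the interaction none passed, and 13 had an unadjusted p under 0.05 (median -1.15). Emr1 and Ptprc are among the 14, so their part there is a description too. The summed level of the 14 ran from 132.2 to 151.2 RPKM in WT sham, 293.5 to 358.8 RPKM in WT TAC, 120.7 to 186.9 RPKM in caPI3Kalpha sham and 130.8 to 158.4 RPKM in caPI3Kalpha TAC. None of the 14 was at 0 in any library. Library caPI3Kalpha sham 5, with S100a4 at 5.9 RPKM, had the highest macrophage sum of the sham libraries at 186.9 RPKM. S100a4 and Vim are also made by macrophages, and the part of these cells in their values was not tested. Endothelial markers moved less: 1 of 12, Pecam1, rose in WT TAC (0.40), the median was 0.13, and their sum ran from 248.6 to 282.0 RPKM in WT sham and 278.7 to 313.9 RPKM in WT TAC. Of 11 mural cell markers 2 rose, Mcam (1.06) and Cspg4 (0.76), with a median of 0.17. Over all genes 13.6% were called higher in WT TAC, and the median was also 0.17. Cardiomyocyte markers summed to between 29204.6 and 30950.0 RPKM in WT sham and between 23708.3 and 25000.6 RPKM in WT TAC, where 2 of 12 fell, Myh6 (-0.68) and Atp2a2 (-0.49). Of 9 nerve and Schwann cell markers 2 were listed and both rose in WT TAC, Uchl1 (1.87) and Pmp22 (0.78). The part of these cell types in the members' values was not tested.

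**Figure D4:**
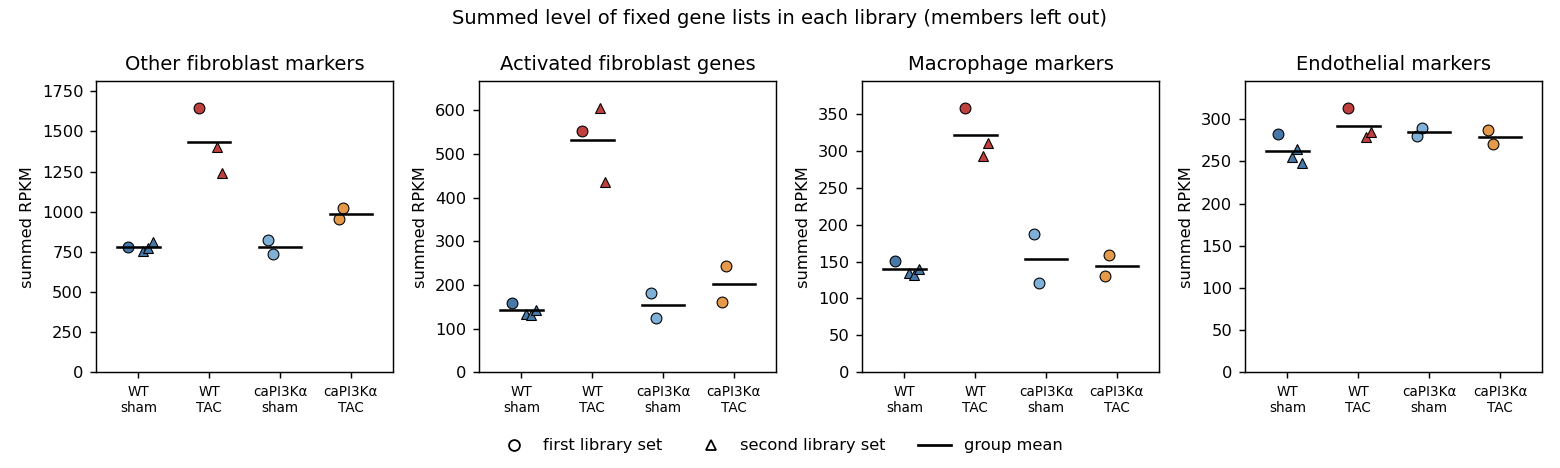
Summed RPKM (vertical axes, linear from 0) of 4 gene lists without the members in each library, by group; circles and triangles are the 2 library sets and bars are group means. The WT TAC libraries stand above all others for the 2 fibroblast lists and for the macrophage markers.

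Genes tied to single members by function were counted in the same way in WT TAC. Of 5 other listed PDGF and discoidin receptor genes, none passed in limma; at an unadjusted p under 0.05 there was 1 (Pdgfa, which encodes a ligand of the receptor, at 0.48, adjusted p = 0.0754), with a median of 0.48. Of 6 listed partners of Tcf21, 3 rose: Tcf12 (0.63) and Tcf4 (0.52), E proteins that pair with such factors, and Id2 (0.41), of a family that blocks pairing. Of 8 other listed intermediate filament and linker genes, Nes, which encodes nestin (1.17), and Dst, a linker protein (0.54), rose and 5 did not pass. Lmnb1, a nuclear lamin, stood at 1.07 and reaches 3 RPKM in WT TAC libraries only, so its value is a description.

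The closeness of patterns was described by Pearson's r over the 11 libraries on log2(RPKM + 0.5). These libraries share the split into sets and the 4 groups, so r describes these libraries only. Aldh1a2 was listed through its WT TAC values, so its r with genes high there, here and below, follows in part from its listing. Among members the closest pair was S100a4 and Aldh1a2 (r = 0.965, and 0.972 after the mean of each set was subtracted), and Vim and Aldh1a2 followed at 0.939. With Aldh1a2 set aside, the closest pair was Vim and S100a4 (0.887, and 0.927 with set means subtracted). Pdgfra was closest to Ddr2 (0.745), and Tcf21 and Ddr2 stood at -0.070, or 0.852 with set means subtracted. Penk was negative with each of the other 7, from -0.335 with Thy1 to -0.782 with Vim.

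Among all genes S100a4 was closest to Lcp1 (0.968), an actin-bundling protein of leukocytes, then to Aldh1a2 and Nckap1l (0.964). Aldh1a2 stood at 0.970 with Serpina3m and 0.969 with Nckap1l, and Vim was closest to Anxa2 (0.978), Tagln2 (0.977) and Lamc1 (0.974). Penk was closest to 4430402I18Rik (0.951), 9030617O03Rik (0.937) and Timp4 (0.933). Tcf21 was closest to Atp13a1 (0.985), Ddr2 to Acbd3 (0.985), Pdgfra to 6330406I15Rik (0.932) and Thy1 to Chd3 (0.919). With set means subtracted the closest were Atp13a1 (0.984) for Tcf21, Plat (0.981) for Pdgfra, Cdh11 (0.987), a mesenchymal cadherin, for Ddr2 and Pgcp (0.944) for Thy1. They were Tagln2 (0.993) for Vim, C4b (0.982) for S100a4 and 1110031I02Rik (0.984) for Penk, and Aldh1a2 stood at 0.983 with Cyth4. Next for Penk were Mecr (0.974) and Myh6 (0.966), the latter a cardiomyocyte marker that also fell in WT TAC. The part of cardiomyocytes in the Penk values was not tested.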

How the data were processed

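The values deposited by the authors are RPKM, and the file header states the minimum of 3 RPKM. The libraries were made from RNA selected for poly-A tails, per the labels' protocols. The submitters' processing notes name CASAVA 1.6, Bowtie, Partek 6.5 and the mouse build mm9, without saying what each was used for. The table has 9251 lines, from which 261 blank ones, 1 error and 2 duplicates were removed to give 8987 genes. Columns matched samples by title, and 0 columns matched none; for WT sham 15 the source name gives another animal number, and the title was used. RPKM summed to between 202916.4 and 212396.3 per library. The 16 miRNA libraries were not used here.

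Tests were limma 3.58.1 (eBayes with trend) in R 4.3.3 on log2(RPKM + 0.5) in 1 model of 4 groups, two-sided, with Benjamini-Hochberg adjustment over all genes and a threshold of 0.05. Requiring a mean of 1 RPKM or more removed 0 genes. The script was tested on simulated data. Intervals are at 95%.

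The members and lists were chosen with earlier results of these data known. Named were all members, for each list up to 3 genes with the smallest p in any comparison, and the 3 genes closest to each member by Pearson's r. Other list genes were named after their values were seen. Some genes that this rule names are not reported here. Alternatives were pseudocounts of 0.1 and 1, quantile normalization, median centring of each library, no filter, robust moderation, the compared groups alone, leaving out each library, a set term and fits within each set.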

Additional observations from a re-analysis of the deposited data

Results flagged for a closer look

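Tcf21 in WT sham was marked because 1 library lay far from the other 3: WT sham 6 read 4.5 RPKM, and the gap to the next value was 0.867 of the range of the group, above Dixon's 95% critical value for 4 values. WT sham 6 is the 1 WT sham library of the first set. Chance marks about 1 in 20 groups, and 8 genes were examined in this group.

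Vim and S100a4 were marked because their load response differed between genotypes by the interaction term in limma, at -1.59 and -2.86 on the log2 scale (adjusted p = 0.00670 and 0.0137). Both were higher in all 3 WT TAC libraries than in all 4 WT sham libraries, while the 2 caPI3Kalpha TAC libraries lay below the mean of caPI3Kalpha sham. Aldh1a2 met the same criterion at -2.77, but it reaches 3 RPKM in the WT TAC libraries only, so this value rests on the libraries through which it was listed and is a description.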

How the results depend on the processing

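Counts here include Aldh1a2, which was listed through WT TAC. Of the 8 members, limma called 5 for WT TAC against WT sham, 8 with the set term, 1 (Vim) within the first set and between 4 and 6 when each library was left out. For the interaction the count of 3 became 0 within the first set and ran from 0 to 4 with each library left out. For caPI3Kalpha TAC against WT TAC it became 0 within the first set and ran from 3 to 5, and for caPI3Kalpha sham against WT sham it ran from 0 to 4. Within the first set WT spread is taken from the caPI3Kalpha libraries, and leaving out a caPI3Kalpha library leaves 1 that is assumed to vary like the other groups. The 5 between loaded hearts came without WT TAC 1 and the 4 between sham hearts without WT sham 6. In both, set and genotype cannot be told apart. The interaction reached 4 without WT sham 6 and without WT TAC 1, each of which leaves a WT group in the second set only.

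Some values changed sign, and not all of them were small over all libraries. For caPI3Kalpha sham against WT sham, Tcf21 stood at 0.82 over all libraries and -0.074 within the first set. Ddr2 went from -0.43 to 0.028 and Thy1 from -0.0064 to 0.20 in the same way. With libraries left out Thy1 ran from -0.11 to 0.11 and S100a4 from -0.16 to 0.84. Pdgfra in the interaction stood at -0.13 within the first set and ran from -0.16 to 0.23. Penk, for caPI3Kalpha TAC against WT TAC, stood at -0.25 within the first set, against 0.36 over all libraries. The causes were not tested.

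Over all genes the 1481 calls for WT TAC became 925 with quantile normalization, 890 with the 2 groups alone, 3785 with the set term, 44 and 2836 within the sets, and 729 to 1994 with libraries left out. The 28 of the interaction became 18 with quantile normalization, 12 centred on medians, 607 with the set term, 0 within the first set and 3 to 66 with libraries left out. The 586 for caPI3Kalpha TAC against WT TAC became 215, 269, 809 and 1 in the same order, 79 with the 2 groups alone and 23 to 3269 with libraries left out, the highest without WT TAC 1. No paired analysis was possible because the compared mRNA groups share no animal numbers. Depth is unknown, and 1 decimal limits values near 1 RPKM such as those of Aldh1a2.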
